A study of Rattus norvegicus with 12 samples.

Results

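Tnf, the gene of the cytokine tumour necrosis factor, was examined together with 8 genes that restrain or carry NF-κB signalling, in cells of rat bronchoalveolar lavage fluid (BALF). These were the inhibitors Nfkbia, Tnfaip3, Zc3h12a, Irak3 and Sigirr and the NF-κB subunits Nfkb1, Nfkb2 and Relb. The members were all probe sets of the array that name 1 of these genes and no other, which gave 10 probe sets for the 9 genes out of 31099 probe sets in all. Nfkbia, Tnfaip3, Zc3h12a, Irak3, Sigirr, Nfkb1, Nfkb2 and Relb had 1 probe set each, while Tnf had 2, and a gene was represented by its probe set of highest mean. All 9 genes were among the 12853 genes tested.

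The study asked how endotoxin in the blood and low oxygen act together on the lung. Fasted male Sprague-Dawley rats of 8 weeks were divided into 4 groups. CTL rats received saline, LPS rats 0.5 mg/kg lipopolysaccharide by the tail vein, HPO rats 6 h in a hypobaric chamber at 405.35 mmHg, equal to 5000 m and 11.2% oxygen, and COMB rats lipopolysaccharide followed by the chamber. Each group had 3 arrays, and each array carried RNA pooled from several rats, 2 rats for 2 of the COMB pools and 3 rats for the others by the labels, while the study's methods give the same number of rats for every pool. Values are given in the order of replicates 1, 2 and 3, which were rats 1, 3 and 4, then 5, 6 and 7, then 8, 9 and 10 in CTL. They were rats 2, 3 and 6, then 5, 7 and 11, then 8, 9 and 10 in LPS, and rats 7, 8 and 9, then 2, 4 and 11, then 3, 5 and 12 in HPO. In COMB they were rats 2 and 3, then 10 and 11, then 12, 13 and 14. The labels give these as numbers of biological replicates, read here as rats. Some numbers recur in several groups, but the rats were divided among the groups, so an equal number does not mean the same rat. A p-value here measures the spread between such pools, not between rats, and 3 pools a group limit the precision. No gene was deleted or overexpressed in these rats, which are a model of 1 dose and 1 time.

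NF-κB is a family of transcription factors held inactive in the cytoplasm by IκB proteins. Signals from Toll-like receptors and from the TNF receptors activate the IKK kinase, IκB is degraded, and the freed dimers switch on cytokine genes such as Tnf. The same dimers switch on genes that end the response, among them the IκB protein itself, so that output and brake share a switch. In the airspace, alveolar macrophages are a known source of TNF after contact with endotoxin.

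A κB-type motif in the promoters of these genes is shown first, because they restrain or carry NF-κB signalling or, for Tnf, are its output. Whether NF-κB acts on each of them was not tested. RefSeq promoters of the GRCr8 build, from 250 bases before to 50 bases after the start of transcription, were at hand for 8 of the 9 genes, and Relb had no entry. The motif GGNNTTTCC, searched on both strands, was found in 4 of the 8 windows, and 6.05% of all 33469 promoters of that length held it. This motif was chosen after these promoters had been read, so the count is a description. Tnfaip3 and Nfkbia held it at 2 places each and Nfkb1 and Nfkb2 at 1 place. Each stretch is written 5′ to 3′ on the strand of the gene, with the motif in capitals, and motifs of the opposite strand appear as their reverse complement.
Nfkbia, chr6:78597070-78597277, minus strand: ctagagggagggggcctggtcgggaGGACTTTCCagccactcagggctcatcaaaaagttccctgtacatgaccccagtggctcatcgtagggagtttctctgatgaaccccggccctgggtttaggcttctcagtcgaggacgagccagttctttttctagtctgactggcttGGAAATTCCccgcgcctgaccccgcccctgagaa
Tnfaip3, chr1:15544001-15544071, minus strand: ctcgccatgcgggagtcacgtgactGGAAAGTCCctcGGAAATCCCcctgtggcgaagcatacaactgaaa
Nfkb1, chr2:226805425-226805483, minus strand: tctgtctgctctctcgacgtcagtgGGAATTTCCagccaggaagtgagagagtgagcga
Nfkb2, chr1:255108330-255108388, plus strand: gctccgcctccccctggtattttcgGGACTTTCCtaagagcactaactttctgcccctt

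The windows of Tnf, Zc3h12a, Irak3 and Sigirr held no GGNNTTTCC. No other κB-type pattern and no bases outside the windows were searched, so this does not show that these genes lack a κB site. The promoter of Tnf is printed in full because Tnf is the output to which the other genes are compared, with its TATAAA box, in capitals. On either strand, 14.2% of all promoters held TATAAA, and among the members Nfkbia also did, on the opposite strand and past its start.
Tnf, chr20:3626435-3626734, plus strand: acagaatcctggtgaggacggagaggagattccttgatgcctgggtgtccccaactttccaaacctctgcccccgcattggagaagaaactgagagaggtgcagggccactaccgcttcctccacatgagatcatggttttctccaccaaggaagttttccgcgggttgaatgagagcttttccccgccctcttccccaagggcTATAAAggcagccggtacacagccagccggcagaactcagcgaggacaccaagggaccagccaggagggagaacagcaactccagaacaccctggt

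Tnf was the gene with the largest difference of the 9 between COMB and CTL, but only on 1 of its 2 probe sets. On the probe set of highest mean, the linear intensity was 46.1, 68.55 and 59.81 in the 3 CTL pools, 96.13, 109.5 and 92.19 in LPS, 51.99, 29.01 and 45.45 in HPO, and 243.4, 354.4 and 485.2 in COMB. All COMB pools lay above all pools of the other groups, and all LPS pools lay above all CTL pools. The mean was 361.0 ± 121.0 (SD, n = 3) in COMB and 58.16 ± 11.31 (SD, n = 3) in CTL. Log2 of the intensity plus 1 was higher in COMB by 2.58 (SE 0.253, limma adjusted p = 6.228e-05), a 5.96-fold difference.

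The other probe set of Tnf gave no such difference. Its intensity was 42.44, 44.77 and 46.72 in CTL, 47.04, 45.97 and 48.18 in LPS, 40.27, 46.79 and 29.84 in HPO, and 42.32, 43.66 and 49.18 in COMB, so that COMB and CTL overlapped. The log2 difference between COMB and CTL was 0.011 (SE 0.137, limma adjusted p = 0.968), with a 95% interval from -0.288 to 0.31 that leaves out the value of the first probe set. It stayed at percentiles from 47.75 to 57.43 of its array, while the first ranged from 45.73 to 91.02. Which of the 2 follows the Tnf transcript could not be settled from the table, and every statement on Tnf below holds for the probe set of highest mean only.

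**Figure D1:**
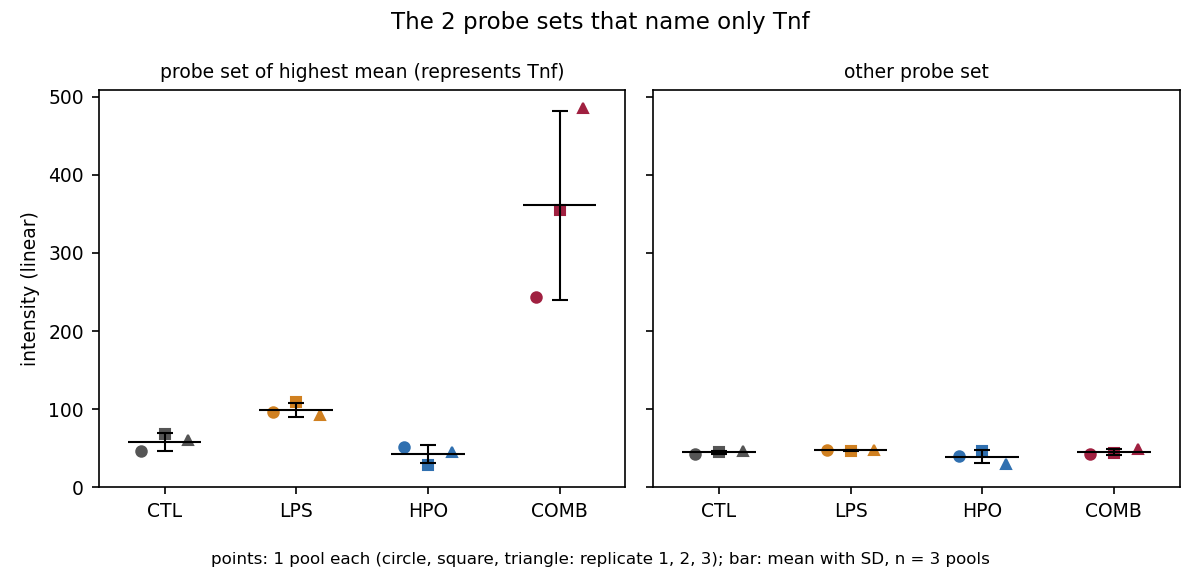
Linear intensity of the 2 probe sets that name only Tnf, by group, on a common axis from 0. Points are pools, and bars are means with SD (n = 3 pools). COMB pools of the probe set of highest mean sit between 243.4 and 485.2, and those of the other probe set between 42.32 and 49.18, within the range of its other groups.

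Nfkbia encodes IκBα, which binds NF-κB dimers and removes them from the nucleus. Its intensity was 982.8, 1142 and 828.5 in CTL, 1342, 1591 and 1049 in LPS, 887.2, 1126 and 1413 in HPO, and 1536, 2715 and 3194 in COMB. COMB lay above CTL and HPO in every pool, whereas the lowest COMB pool fell below the LPS pool of rats 5, 7 and 11. The log2 difference between COMB and CTL was 1.28 (SE 0.261, limma adjusted p = 0.005068). Against LPS it was 0.857 with an adjusted p of 0.05312, which did not pass the threshold of 0.05. Without the COMB pool of rats 2 and 3 that difference in Nfkbia was 1.17 (limma adjusted p = 0.004831).

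Tnfaip3 encodes A20, an enzyme that edits ubiquitin chains and shuts off signalling from the TNF and Toll-like receptors. Its intensity was 393.7, 590.5 and 542.8 in CTL, 529.9, 514.5 and 426.4 in LPS, 480.6, 394.7 and 474.2 in HPO, and 626.6, 1226 and 1047 in COMB. Every COMB pool was above every other pool, and CTL, LPS and HPO overlapped. Tnfaip3 was higher in COMB than in CTL by 0.889 on the log2 scale (SE 0.224, limma adjusted p = 0.01588), and this call was lost without the CTL pool of rats 1, 3 and 4 (0.07224), the COMB pool of rats 10 and 11 (0.059) or the COMB pool of rats 12, 13 and 14 (0.05607).

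Zc3h12a encodes regnase-1, a ribonuclease that degrades mRNAs of cytokines. Its intensity was 51.87, 65.67 and 52.21 in CTL, 115.5, 107.9 and 81.58 in LPS, 45.49, 46.98 and 53.81 in HPO, and 331.3, 271.7 and 330.2 in COMB. The COMB pools lay above all others, and the LPS pools above all CTL and HPO pools. Zc3h12a was 5.43-fold higher in COMB than in CTL (log2 difference 2.44, SE 0.147, limma adjusted p = 3.117e-06). It had the highest log2 difference of the 5 inhibitors.

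Irak3 encodes IRAK-M, a pseudokinase that dampens signalling below the Toll-like and IL-1 receptors. Its intensity was 157.4, 147.5 and 145.9 in CTL, 177.7, 214.7 and 161.5 in LPS, 123.8, 142.6 and 193.9 in HPO, and 323.5, 396.3 and 353.8 in COMB. The COMB pools were apart from all others, and HPO spanned the values of CTL. Irak3 was higher in COMB than in CTL by 1.24 on the log2 scale (SE 0.158, limma adjusted p = 0.0003008).

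Sigirr encodes an inhibitory receptor of the IL-1 receptor family. It was the dimmest of the members within its arrays, at percentiles from 17.71 to 51.38, and lay above the 20th percentile in 11 of the 12 arrays. Its intensity was 9.925, 14.04 and 12.28 in CTL, 13.69, 11.75 and 11.92 in LPS, 13.2, 13.6 and 10.66 in HPO, and 24.6, 37.33 and 33.15 in COMB. CTL, LPS and HPO overlapped near the low end of the array, and COMB lay above them. The log2 difference between COMB and CTL was 1.31 (SE 0.162, limma adjusted p = 0.0002447). With probe sets required to exceed the 50th percentile, Sigirr was not tested.

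Of the subunits, Nfkb1 encodes p105, the precursor of p50. Its intensity was 644.8, 695.5 and 645.7 in CTL, 812.2, 720 and 665.6 in LPS, 586.9, 562.7 and 620.4 in HPO, and 782.7, 815.1 and 994.5 in COMB. COMB lay above CTL and HPO and overlapped LPS, and HPO lay below CTL in every pool. Nfkb1 had the smallest difference of the 9 genes between COMB and CTL, 0.377 on the log2 scale (SE 0.111, limma adjusted p = 0.03299). For Nfkb1 the adjusted p was 0.1009 and 0.1066 without the CTL pools of rats 1, 3 and 4 and of rats 8, 9 and 10, and 0.1201 without that of COMB rats 12, 13 and 14, none past the threshold, and also with each array centred on its median (0.07432).

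Nfkb2 encodes p100, which acts as an inhibitor until it is cut to p52, and Relb encodes the usual partner of p52. The intensity of Nfkb2 was 182.7, 204.3 and 149.8 in CTL, 219.8, 235.1 and 161.1 in LPS, 138.9, 115.6 and 167.8 in HPO, and 294.1, 441.1 and 408 in COMB. That of Relb was 68.78, 90.2 and 79.25 in CTL, 105.8, 91.66 and 96.76 in LPS, 68.97, 73.9 and 56.34 in HPO, and 126.8, 162.9 and 219.1 in COMB. For both genes all COMB pools lay above all other pools. The log2 difference between COMB and CTL was 1.08 (SE 0.197, limma adjusted p = 0.002677) for Nfkb2 and 1.06 (SE 0.18, limma adjusted p = 0.001691) for Relb.

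**Figure D2:**
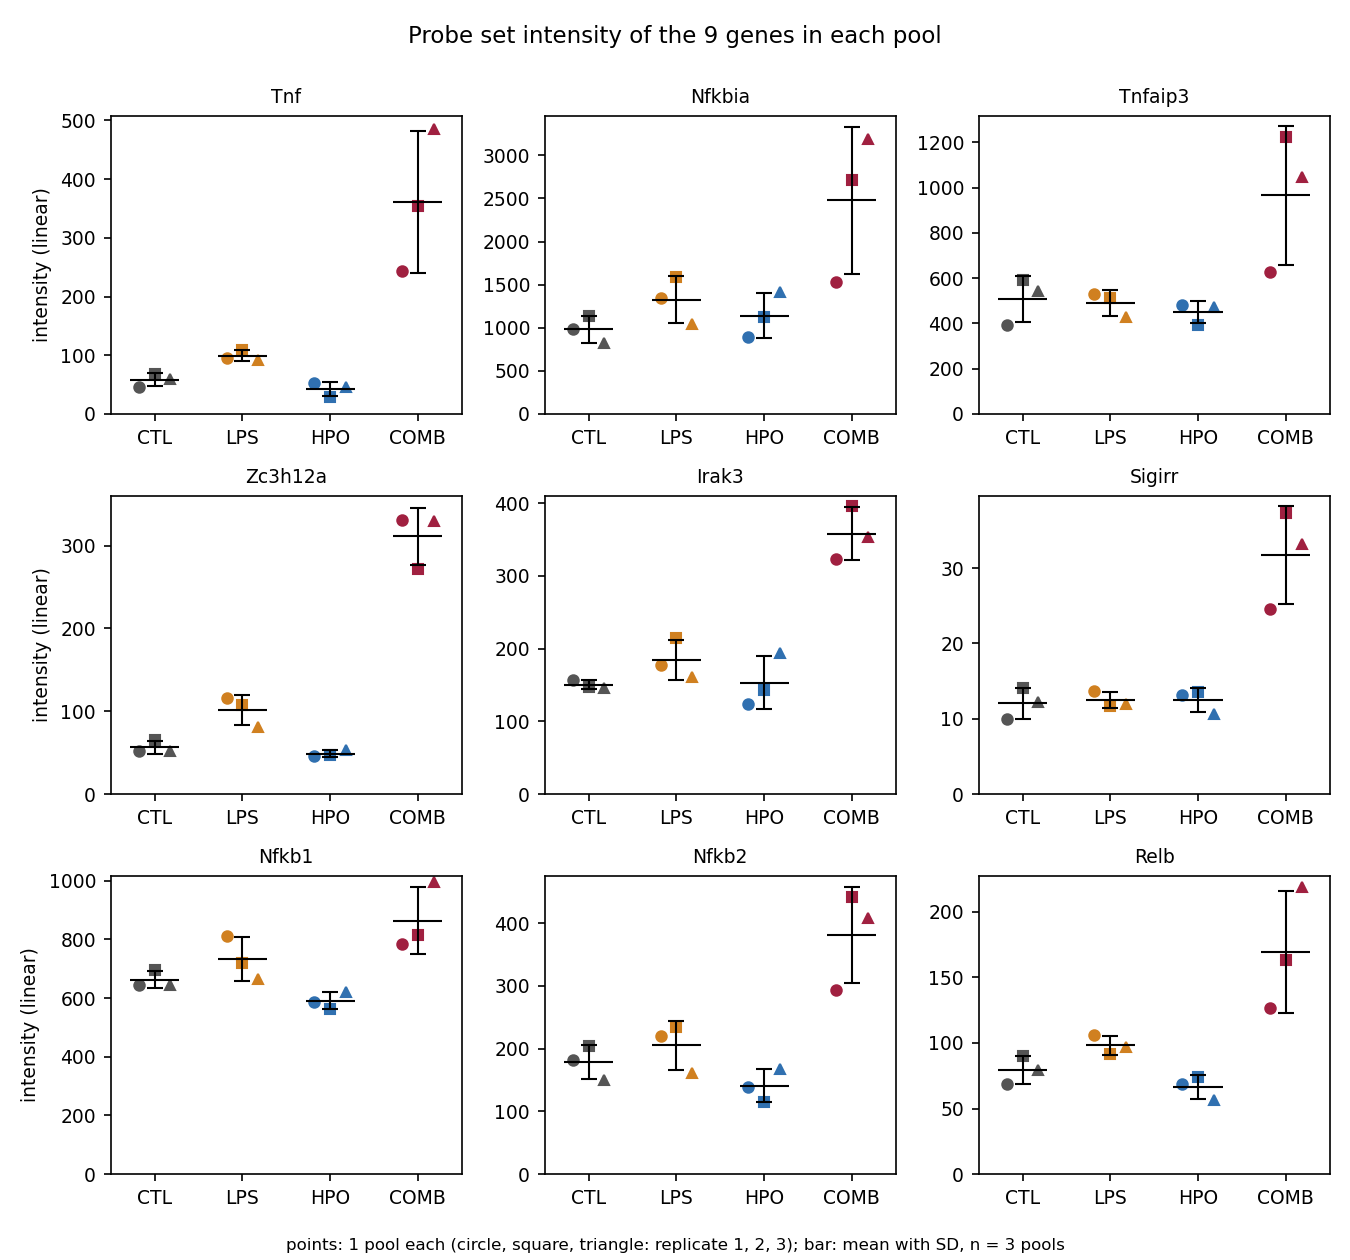
Linear intensity of the 9 genes in each of the 12 pools, each panel on its own axis from 0. Points are pools (circle, square and triangle for replicates 1, 2 and 3), and bars are means with SD (n = 3 pools). In each panel the 3 COMB pools lie above the 3 CTL pools; Tnf is shown by its probe set of highest mean.

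Between COMB and CTL, 9 of the 9 genes were called higher by limma, against 8.84% of all 25692 probe sets tested, while 10.2% of these were called lower. In 9 of 9 genes each COMB pool exceeded each CTL pool, which held for 14.9% of all probe sets. The median log2 difference of the 9 genes was 1.24, and that of all probe sets was -0.042. The members were chosen with earlier results of these data known, so these counts describe them and do not test them. With the other probe set of Tnf the 8 remaining genes were called. In a fit of COMB and CTL only, the calls of Tnfaip3 (0.07308) and Nfkb1 (0.07386) were lost. With the methods' t-test after adjustment the members called were 2, Zc3h12a and Irak3, against 0.837% of all probe sets called higher.

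LPS alone moved 1 of the 9 genes past the threshold. Zc3h12a was higher in LPS than in CTL by 0.827 on the log2 scale (SE 0.147, limma adjusted p = 0.01959), and 0.868% of all probe sets were called higher and 1.18% lower. That call was lost when the fit left out either CTL replicate 1 or 3 (rats 1, 3 and 4, or rats 8, 9 and 10) or LPS replicate 1 or 2 (rats 2, 3 and 6, or rats 5, 7 and 11). The limma adjusted p was then 0.07044 to 0.09805, and 0.183% to 0.389% of all probe sets were called higher. Tnf differed by 0.776 (SE 0.253, limma adjusted p = 0.1562). It was called in a fit of LPS and CTL only (0.03103), in that fit with a replicate block (0.03196) and with array weights (0.01865). All LPS pools exceeded all CTL pools for 4 genes, Tnf, Zc3h12a, Irak3 and Relb, which held for 11.3% of all probe sets. Tnfaip3 and Sigirr showed log2 differences of -0.039 and 0.05, with intervals from -0.528 to 0.45 and from -0.303 to 0.403.

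Hypoxia alone moved none of the 9 genes past the threshold of limma, and 0 had an unadjusted p under 0.05, while 0.035% of all probe sets were called in either direction. The log2 differences ran from -0.477 for Tnf to 0.201 for Nfkbia, with a median of -0.17. Nfkb1 was the 1 gene with every HPO pool below every CTL pool, which held for 6.57% of all probe sets, and its difference was -0.166 (SE 0.111, limma adjusted p = 0.7258). The interval of Tnf reached from -1.03 to 0.075, and that of Nfkbia from -0.369 to 0.77.

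COMB was also set against each single exposure. Against LPS, 7 of the 9 genes were called higher by limma, against 6.64% of all probe sets, with 5.27% called lower (6.62% and 9.24% with quantile normalization), and 7 had no overlap, against 15.4%. The log2 differences were 1.8 for Tnf (SE 0.253, limma adjusted p = 0.00157), 1.61 for Zc3h12a (SE 0.147, limma adjusted p = 0.0002384), 1.26 for Sigirr, 0.956 for Irak3, 0.929 for Tnfaip3, 0.886 for Nfkb2 and 0.751 for Relb. Nfkbia and Nfkb1 did not pass, but Nfkbia did with quantile normalization (0.04859), the 50th percentile filter (0.04724), weighting of pools by their rats (0.04102) and array weights (0.01313). Without the LPS pool of rats 8, 9 and 10 or the COMB pool of rats 10 and 11 the members called were 4, and the genes lost were Tnfaip3, Nfkb2 and Relb. In these 2 fits 3.2% and 4.23% of all probe sets were called higher. Tnfaip3 and Relb were also lost when LPS replicate 2 (0.05042 and 0.06786) or COMB replicate 3 (0.06082 and 0.05173) was omitted, and in a fit of these 2 groups only (0.06482 and 0.06102). Against HPO, 9 of 9 genes were called higher, against 6.83% of all probe sets, and 9 had no overlap, against 11.0%. The log2 difference was 1.08 for Nfkbia (SE 0.261, limma adjusted p = 0.01598), and its call was lost without the HPO pool of rats 7, 8 and 9 (0.06413), the COMB pool of rats 10 and 11 (0.05422) or the COMB pool of rats 12, 13 and 14 (0.06128) and in a fit of COMB and HPO only (0.06069). COMB is shared by these comparisons, so they are not independent of each other.

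The effect of LPS in hypoxia was compared with that in normal oxygen by the interaction, COMB minus LPS less HPO minus CTL. It was above 0 for 9 of the 9 genes, and 2 were called, against 0.0895% of all probe sets called higher and 0.0467% lower (0.152% and 0.171% with quantile normalization). For Tnf it was 2.28 on the log2 scale (SE 0.358, 95% interval 1.496 to 3.059, limma adjusted p = 0.03962), and for Zc3h12a it was 1.82 (SE 0.208, 95% interval 1.365 to 2.274, limma adjusted p = 0.01347). With the other probe set of Tnf it was 0.15 (SE 0.194, limma adjusted p = 0.8183). With 1 pool left out, the call of Tnf held in the absence of CTL replicate 1, HPO replicate 3, COMB replicate 1 or COMB replicate 3, with adjusted p from 0.004597 to 0.04986. It was lost in the absence of any 1 of the other 8 pools, with limma adjusted p from 0.06396 to 0.1246. In those 8 fits the value of Tnf was 2.035 to 2.446, and 0.00778% to 0.0389% of all probe sets were called higher. The call of Tnf was also lost with both of its probe sets averaged (0.06069). The call of Zc3h12a was lost without the HPO pools of rats 7, 8 and 9 (0.06193) or 2, 4 and 11 (0.05936). In these 2 fits its value was 1.772 and 1.795, and 0.00778% and 0.0117% of all probe sets were called higher. Of the rest, Sigirr had 1.21 (limma adjusted p = 0.06445), Nfkb2 1.24, Tnfaip3 1.09, Relb 1.01, Irak3 0.951, Nfkbia 0.656 and Nfkb1 0.401, and none of these passed. Without the COMB pool of rats 2 and 3 the members called in the interaction were 7, and in that fit 1.73% of all probe sets were called higher. Sigirr was also called with quantile normalization (0.04416) and with a trended robust fit (0.03942).

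**Figure D3:**
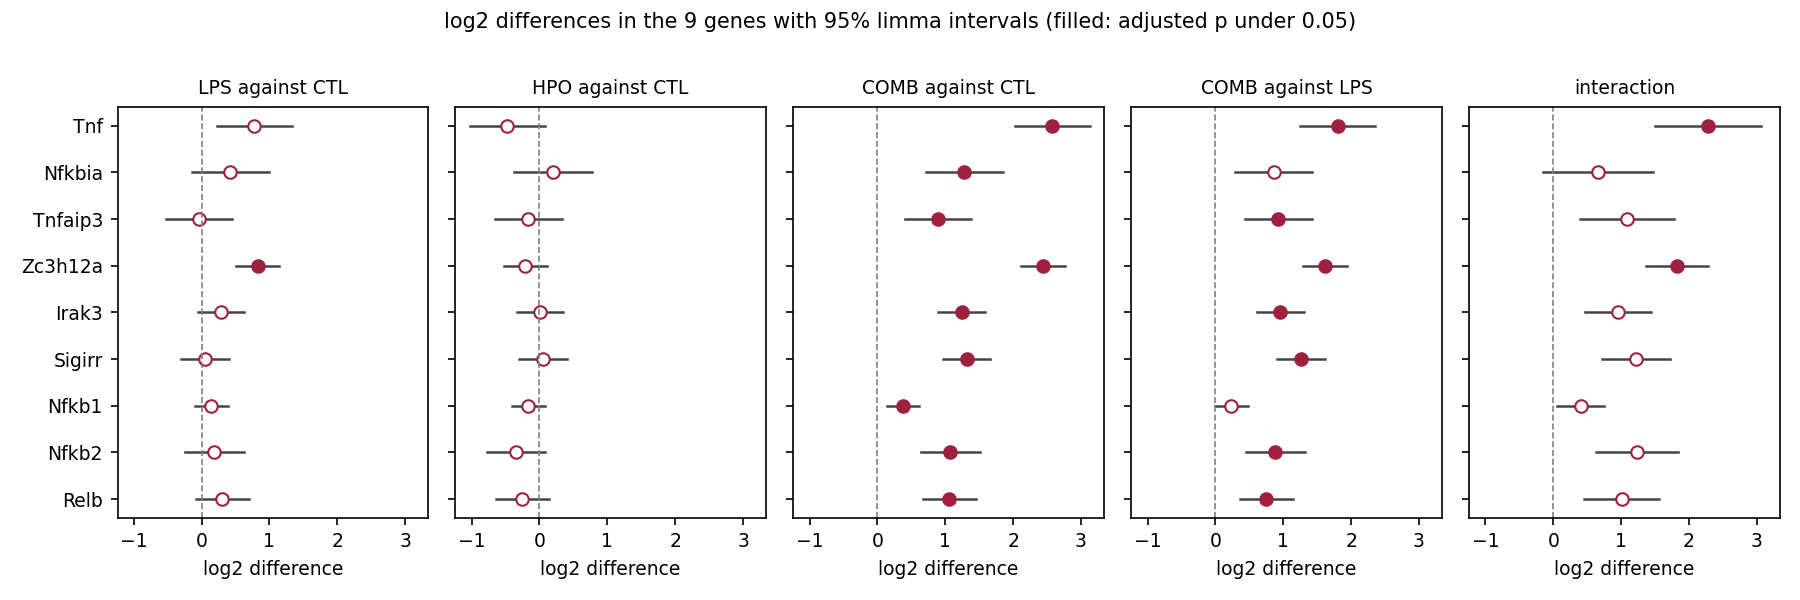
Log2 differences of the 9 genes in 5 comparisons, with 95% intervals from the limma fit. Filled points have an adjusted p under 0.05; the filled points number 1 of 9 for LPS against CTL, 0 for HPO against CTL, 9 for COMB against CTL, 7 for COMB against LPS and 2 for the interaction, and Tnf is shown by its probe set of highest mean.

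On the linear scale the increments of the single exposures were smaller than that of both. For Tnf the increments over CTL were 41.11 in LPS and -16.01 in HPO, which sum to 25.1, and that in COMB was 302.8. For Zc3h12a the sum was 37.18 and the COMB increment 254.5. For Nfkbia they were 500.2 and 1498, for Irak3 37.4 and 207.5, and for Relb 5.66 and 90.19. The sum was below 0 for Tnfaip3 (-77.9), Nfkb1 (-1.4) and Nfkb2 (-11.7), with COMB increments of 457.3, 202.1 and 202.1. These are values of the group means, with no test.

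Output was then compared with the inhibitors and with the NF-κB subunits within each pool. The measure was log2 Tnf minus log2 of each other gene, relative to the CTL mean of that difference. The 4 groups were compared by an exact permutation test over 15400 splits of the 12 arrays, with Benjamini-Hochberg adjustment over 8 differences, and the smallest p possible was 6.494e-05. Tnf against Zc3h12a was the difference that did not separate the groups. It ran from -0.47 to 0.52 in COMB, -0.2 to 0.16 in CTL, -0.29 to 0.15 in LPS and -0.71 to 0.16 in HPO (two-sided exact permutation, adjusted p = 0.6154). The mean in COMB was 0.14, and the 3 COMB pools lay on both sides of the CTL mean. A p of this size does not show that Tnf and Zc3h12a moved alike.

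For the other 7 genes the log2 difference of Tnf was the larger in COMB, and each COMB pool exceeded all 9 other pools. The mean shift in COMB was 1.3 against Nfkbia, 1.69 against Tnfaip3, 1.33 against Irak3, 1.26 against Sigirr, 2.2 against Nfkb1, 1.5 against Nfkb2 and 1.52 against Relb. Each shift is the log2 difference of Tnf between COMB and CTL, 2.58, less that of the other gene. The median difference of all probe sets was -0.042, so Tnf would shift upward against most genes of the array. How many of those would also separate COMB was not counted, and the p-values below take in the rise of Tnf itself. The exact permutation test asked whether the 4 groups differed at all, with LPS and HPO included, and did not test the COMB shift alone. Its adjusted p was 0.001336 for Nfkbia, Irak3, Nfkb2 and Relb, 0.0002597 for Tnfaip3 and Sigirr, and 0.0006926 for Nfkb1. Sigirr lay at a mean percentile of 23.2 in CTL, near the dim end of the array, which limits the value of its shift. As ratios, Tnf over Nfkbia was 2.46-fold and Tnf over Tnfaip3 3.22-fold that of CTL. In LPS the shifts of these 7 ran from 0.35 against Nfkbia to 0.82 against Tnfaip3, and in HPO from -0.68 against Nfkbia to -0.13 against Nfkb2. With 3 pools against 3 a permutation test of 2 groups alone cannot go below p = 0.1.

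These shifts rest on the choice of the Tnf probe set. With the other probe set all 8 turned, to -1.27 against Nfkbia, -0.878 against Tnfaip3, -2.43 against Zc3h12a, -1.23 against Irak3, -1.30 against Sigirr, -0.366 against Nfkb1, -1.07 against Nfkb2 and -1.05 against Relb. With the mean of both, the shift was 0.917 against Nfkb1, 0.404 against Tnfaip3, 0.236 against Relb, 0.217 against Nfkb2, 0.051 against Irak3, 0.014 against Nfkbia, -0.020 against Sigirr and -1.15 against Zc3h12a.

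**Figure D4:**
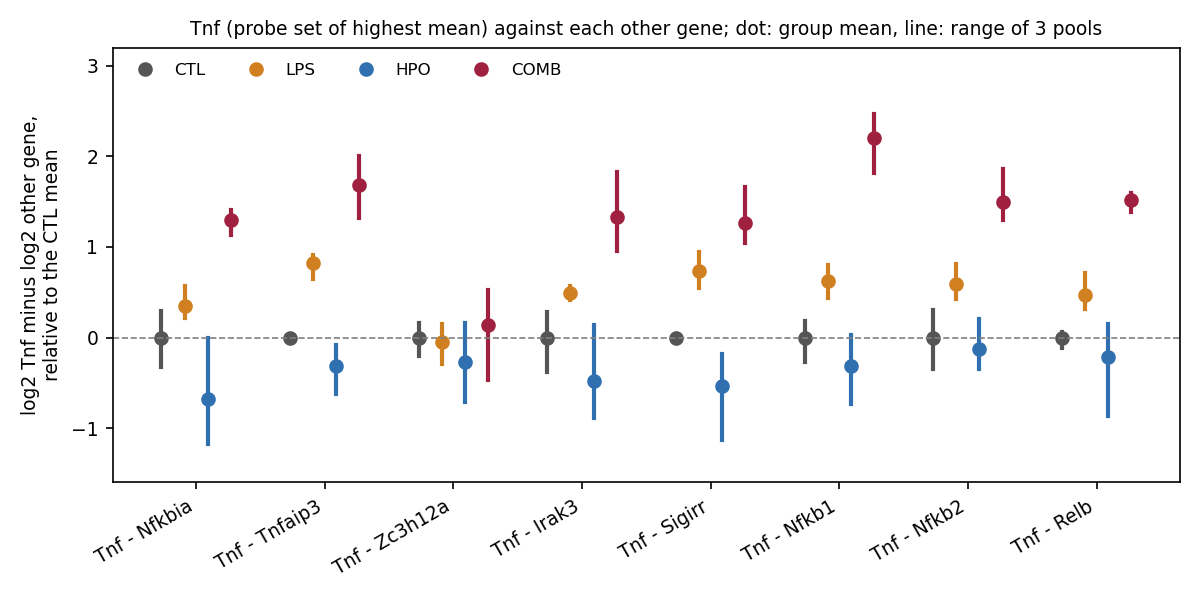
Log2 Tnf (probe set of highest mean) minus log2 of each other gene, relative to the CTL mean. Dots are group means and lines the range of the 3 pools; the COMB line of Zc3h12a spans -0.47 to 0.52 and overlaps the other groups, while the COMB lines of the other 7 genes lie above theirs.

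The pools of a group differed in the same direction for many members. In COMB, the pool of rats 2 and 3 was the lowest for 8 of the 9 genes, the exception being Zc3h12a, for which it was the highest. In CTL the pool of rats 5, 6 and 7 was the highest for 8 genes, and in LPS the pool of rats 8, 9 and 10 was the lowest for 7. Genes that share pools are therefore not separate pieces of evidence.

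The genes nearest in pattern were found by the root mean square difference of log2 values, each gene centred on its own mean, over 12 arrays and 12853 genes. Nearest to Tnf came Zc3h12a at 0.337, then the chemokine gene Ccl3 at 0.342, Nfkbiz, an IκB protein of the nucleus, at 0.357, the granulocyte growth factor gene Csf3 at 0.375, and Ube2l6, the conjugating enzyme of ISG15, at 0.378. Nearest to Nfkbia came Pstpip1 at 0.151, Mllt6 at 0.195, the phosphatase gene Dusp1 at 0.216, Gadd45g at 0.216 and the lipid droplet gene Hilpda at 0.22. Among members Irak3 was ranked 9 to Nfkbia and Nfkb2 was ranked 16. The measure is not scaled, so that it grows with the size of a gene's differences. These are descriptions, with no test.

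The rest of the pathway was read from lists of genes that are not members, and the counts are to be read against the 8.84% of all probe sets called higher and 10.2% called lower in COMB against CTL. These lists too were chosen with earlier results of these data known, so their counts are descriptions. Of 14 tested genes of TNF receptors and TNF shedding, 4 were called higher and 1 lower in COMB than in CTL, with a median log2 difference of 0.25. Birc3, which joins the TNF receptor complex, was higher by 1.86, Ltb, a cytokine of the TNF family, by 1.59, Rhbdf1, a partner of the sheddase, by 1.18 and the receptor Tnfrsf1b by 0.676 (limma adjusted p = 0.0186, 0.03583, 0.01312 and 0.03753). Adam17, the sheddase that frees TNF from the membrane, fell by 0.411 (limma adjusted p = 0.04003), and the receptor Tnfrsf1a had 0.024 (limma adjusted p = 0.9333).

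Of 6 other genes of the NF-κB and IκB family, 2 were called higher in COMB and 0 lower by limma, with a median of 0.52: Nfkbiz by 2.40 (limma adjusted p = 0.0001333) and the IκBβ gene Nfkbib by 0.827 (limma adjusted p = 0.002281). Of 20 genes of the IKK complex and signal transducers, 4 were called higher and 1 lower, with a median of 0.11. The endotoxin co-receptor Cd14 was higher by 2.60, Irak2 by 0.988, the kinase gene Map3k8 by 0.968 and Traf3 by 0.585, and Tab3, an adaptor of the kinase TAK1, fell by 0.954 (limma adjusted p from 6.807e-05 for Cd14 to 0.01937 for Irak2).

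Of 22 other feedback inhibitors, 5 were called higher and 2 lower in COMB, with a median of 0.23. The decoy receptor Il1r2 was higher by 3.38, Usp18, a brake on interferon signalling, by 1.95, Zfp36l1, which promotes decay of mRNAs, by 1.62 and Dusp1 by 0.881. Tnfaip8l2 and Pdlim2 fell by 0.421 and 0.405. Of 27 other targets of NF-κB, 17 were called higher and 1 lower, with a median of 1.48. The largest were Lcn2, an iron-binding protein of neutrophils and epithelium, by 7.46, and the genes Ccl20 by 5.45, Cxcl1 by 5.13 and Il1a by 3.88, which encode 2 chemokines and a cytokine; Cd83 fell by 0.654.

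With LPS alone, where 0.868% of all probe sets were called higher and 1.18% lower, 5 of the 27 targets were called higher, namely Lcn2 by 5.29, Ccl20 by 2.66, Cxcl1 by 2.41, Il1a by 1.61 and Sod2, a mitochondrial antioxidant enzyme, by 1.26 on the log2 scale. In the same comparison 1 gene of the other family members (Nfkbiz, by 1.31) and 1 of the transducers (Cd14, by 1.90) were called higher, and 1 transducer (Tab3) and 1 inhibitor (Pdlim2) lower, and no gene of TNF receptors and shedding was called. With hypoxia alone 0 genes of these 5 lists were called by limma, and 0.035% of all probe sets were called. In the interaction, with 0.0895% of all probe sets called higher, 3 targets were called higher, Il1a (3.05), Ccl20 (2.45) and Csf3 (2.38).

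The cells were not sorted, and in such bulk RNA fewer cells of a type and less RNA per cell cannot be told apart. For the markers of cell types, as for the other lists, 8.84% of all probe sets were called higher and 10.2% lower in COMB against CTL. Of 11 tested alveolar macrophage markers 2 were called higher and 4 lower in COMB than in CTL, and their summed intensity was 20280 to 21710 in COMB and 21320 to 22590 in CTL, with none of these markers below the 20th percentile on all arrays. Neutrophil markers were called higher in 4 of 9 and lower in 1, with summed intensity of 6024 to 9486 in COMB and 3470 to 5696 in CTL, and the defensin gene Np4 was below the 20th percentile on all arrays. Recruited monocyte markers were called higher in 3 of 7 (5267 to 7552 against 1396 to 3672) and those of T and NK cells in 2 of 12 (1232 to 7415 against 597.6 to 2767). Epithelial markers were called higher in 14 of 16, with 14560 to 20770 in COMB, 5313 to 7812 in CTL, 10440 to 10990 in LPS and 10430 to 11740 in HPO. A sum is weighted to its brightest genes. Of the epithelial sum, Scgb1a1 made up 9489 to 10730 in COMB, 4107 to 6353 in CTL, 8478 to 8755 in LPS and 7078 to 9407 in HPO. Of the neutrophil sum, Fcgr3a made up 2465 to 2963 in COMB and 2640 to 3052 in CTL. Of the monocyte sum, Cd14, also listed with the transducers, made up 1750 to 2963 in COMB and 289.8 to 564.2 in CTL. Plac8 made up 729 to 2803 and 58.1 to 1433, and Ly6c 768.6 to 1000 and 42.95 to 369.9. The monocyte markers Ccr2, F13a1 and Cx3cr1 had means of 8.876, 10.38 and 38.76 in COMB and 7.775, 9.426 and 38.37 in CTL. The part of these cells in the differences of the 9 genes was not tested. Of 12 known hypoxia targets, 0 were called in HPO by limma, where 0.035% of all probe sets were called, and in COMB 2 were called higher and 1 lower, where 8.84% and 10.2% of all probe sets were.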

How the data were processed

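RNA of BALF cells of 12 pools was hybridised to Affymetrix Rat Genome 230 2.0 arrays. The authors deposited 1 linear intensity per probe set and array; the normalization is not given in the sources used here. The array medians lay between 32.7 and 35.6. Groups were taken from the labels.

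Of 31099 probe sets, 57 controls were left out, and 25692 lay above the 20th percentile of their array in at least 3 arrays. limma 3.58.1 in R 4.3.3 was fitted to log2 of the intensity plus 1 with 4 group means (8 residual and 3.94 prior degrees of freedom), with Benjamini-Hochberg adjustment over all probe sets tested. The fit and the permutation test were tested on simulated data. The members and the gene lists were chosen with earlier results of these data known. Named were all members, the called genes of each other list up to 4 by size in COMB against CTL, and the 5 genes nearest to Tnf and to Nfkbia; Tnfrsf1a, the genes that fell, those called with LPS or in the interaction, and Np4 were named after their values were seen. The alternatives were other normalizations, filters, weights and fits, an unpaired t-test of 2 groups with and without adjustment, and the mean of the probe sets of a gene. Further ones were a replicate block, the omission of each pool and, chosen after seeing the data, the other Tnf probe set. Scanned array files and the study's other assays were not used here.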

Additional observations from a re-analysis of the deposited data

Results flagged for a closer look

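The interaction was called for 2 of the 9 genes, against 0.0895% of all probe sets called higher, and neither call held in the absence of every pool. For Tnf, on its probe set of highest mean, the log2 difference of COMB over LPS exceeded that of HPO over CTL by 2.277 (limma adjusted p = 0.03962). This call was lost in the absence of most single pools, with limma adjusted p up to 0.1246, and with both probe sets averaged (0.06069). In those fits without a pool the Tnf value was 2.035 to 2.446, and 0.00778% to 0.0389% of all probe sets were called higher. On the other Tnf probe set the value was 0.15 (limma adjusted p = 0.8183). For Zc3h12a the difference of COMB over LPS was the larger by 1.82 (limma adjusted p = 0.01347). That call was lost without HPO replicate 1 (0.06193) or HPO replicate 2 (0.05936). In these 2 fits the Zc3h12a value was 1.772 and 1.795, and 0.00778% and 0.0117% of all probe sets were called higher.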

How the results depend on the processing

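The number of members called was 9 in COMB against CTL and 2 with the unpaired t-test after adjustment, which called 0.837% of all probe sets higher. Members called in LPS against CTL numbered 1, and 3 with array weights (5.55% of all probe sets called higher), 2 with only the 2 groups compared (1.74%) and 0 to 1 with a pool left out (0.183% to 0.817%). They numbered 2 with the unadjusted t-test (7.01% of all probe sets called higher) and 0 with the adjusted t-test (0.00389%). As a replicate block, each LPS pool was paired with the CTL pool that shared most of its rat numbers. LPS replicate 1 shared as many with CTL replicate 1 as with CTL replicate 2, and was paired with the former. With this block, in a fit of these 2 groups only, 2 members were called in LPS against CTL. Tnf was among them (limma adjusted p = 0.03196), and was also called in that fit without the block (limma adjusted p = 0.03103). Calls over all probe sets were 736 with that block and 525 in the main fit of all 12 arrays, which differ in more than the block. In the fit of CTL and LPS only, 1.74% of all probe sets were called higher and 2.72% lower without the block. With the block these shares were 1.14% and 1.72%. Since the deviations of the paired pools correlated by -0.01 to 0.04, the numbers were not taken as pairs. Members called in HPO against CTL numbered 0, and 1 with the unadjusted t-test, which called 5.17% of all probe sets higher and 3.5% lower. Members called in COMB against LPS numbered 7, 0 with the adjusted t-test and 4 to 8 with a pool left out (3.2% to 7.38% of all probe sets called higher). In COMB against HPO they numbered 9 and 1 with the adjusted t-test. That t-test called few probe sets of the array higher, 0.035% in COMB against LPS and 0.0389% in COMB against HPO. Members called in the interaction numbered 2, and 7 with array weights (4.67% of all probe sets called higher). They numbered 1 where probe sets were averaged per gene (0.117% of all genes called higher) and 1 with the other Tnf probe set. With a pool left out they numbered 0 to 7, and 0.00778% to 1.73% of all probe sets were called higher.

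With the other Tnf probe set the shift of Tnf in COMB turned to -1.268 against Nfkbia, -0.878 against Tnfaip3, -2.43 against Zc3h12a, -1.231 against Irak3, -1.303 against Sigirr, -0.366 against Nfkb1, -1.066 against Nfkb2 and -1.047 against Relb, and Tnf in COMB against LPS turned to -0.064. With the mean of both it stayed past the threshold against Tnfaip3 (0.404) and Nfkb1 (0.917), and was 0.014 against Nfkbia, 0.051 against Irak3, 0.217 against Nfkb2 and 0.236 against Relb, none past the threshold, and -1.147 against Zc3h12a and -0.020 against Sigirr. With a pool left out, Tnf against Zc3h12a ran from -0.059 to 0.439. Differences near 0 that were not called also changed sign. Tnfaip3 in LPS against CTL was 0.020 with quantile normalization and -0.214 to 0.078 with a pool left out. Sigirr with a pool left out was -0.074 to 0.157 in LPS and -0.074 to 0.156 in HPO, each against CTL. Irak3 in HPO against CTL was -0.003 with quantile normalization, -0.030 with centred arrays, -0.212 with array weights and -0.175 to 0.146 with a pool left out. The cause of these changes was not tested. Sigirr lies low on the array, which limits its values.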
